A study of Mus musculus with 31 samples.

Results

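Small nucleolar RNAs and small Cajal body RNAs were followed in mouse brain total RNA: the genes whose symbols start with Snord, Snora or Scarna and that had 10 or more counts in at least 13 of 31 libraries. Of 48795 genes in the count table, 149 carry such a symbol, and 26 of them met the count rule: 14 of 99 box C/D genes (Snord), 8 of 41 box H/ACA genes (Snora) and 4 of 9 Cajal body genes (Scarna). The 31 libraries were made from homogenised mouse brain, 13 from animals labelled control and 18 from animals labelled deltamethrin, an insecticide of the pyrethroid class, whose members keep voltage-gated sodium channels open. The series describes the exposure as developmental and asks how it affects gene transcription in the brain. The labels give no strain, genotype, sex, age, dose, route, vehicle or litter for either group, and they do not say that each sample is a separate animal, so p-values measure the spread between these samples only.

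Small nucleolar RNAs guide the chemical modification of other RNAs. Box C/D RNAs bind fibrillarin and direct ribose methylation, and box H/ACA RNAs bind dyskerin and direct the conversion of uridine to pseudouridine, both mainly on ribosomal RNA in the nucleolus. Small Cajal body RNAs do the same for the spliceosomal small nuclear RNAs in the Cajal body, a nuclear compartment close to the nucleolus that is prominent in neurons. Most mammalian small nucleolar RNAs are cut out of the introns of host genes, while a few have promoters of their own. The brain is also known for the imprinted Snord116 cluster of the Prader-Willi region, whose repeated box C/D RNAs have no established modification target.

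The RNAs on which the results turn are printed so that their boxes and, for Snord116, the near-identity of copies can be seen. Sequences are the transcripts of GENCODE M21 on GRCm38, matched by gene ID, written 5′ to 3′ as the RNA strand with T for U. Capitals mark the first TGATGA (a box C sequence) and the last CTGA (a box D sequence) in the box C/D and Cajal body RNAs, and the ACA near the 3′ end in Snora23. Scarna2, a Cajal body RNA that guides methylation of U2 small nuclear RNA, lies at chr3:108554338-108554751 on the minus strand, and its last 90 bases are printed (chr3:108554338-108554427). Scarna6, which has both C/D and H/ACA elements, lies at chr1:87784556-87784820 on the plus strand in an intron of Atg16l1. Snord17 lies at chr2:144265979-144266216 on the minus strand in an intron of Snx5. Snora23 lies at chr7:110046364-110046547 on the plus strand in an intron of Ipo7, antisense to 1600010M07Rik. Snord118, required for processing of large-subunit ribosomal RNA, lies at chr11:69073427-69073561 on the plus strand outside any same-strand host. Snord91a lies at chr11:74905424-74905516 on the plus strand in an intron of Tsr1. Snord116l8 (chr7:59879459-59879552) and Snord116l12 (chr7:59904755-59904848) lie on the minus strand in introns of Snhg14.
Scarna2: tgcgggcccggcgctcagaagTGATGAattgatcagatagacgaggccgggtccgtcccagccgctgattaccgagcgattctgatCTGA
Scarna6: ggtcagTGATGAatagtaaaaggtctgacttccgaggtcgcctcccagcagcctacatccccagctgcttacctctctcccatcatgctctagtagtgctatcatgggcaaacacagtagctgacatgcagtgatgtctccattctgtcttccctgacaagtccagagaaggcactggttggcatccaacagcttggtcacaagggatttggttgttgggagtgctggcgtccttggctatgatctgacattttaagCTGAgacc
Snord17: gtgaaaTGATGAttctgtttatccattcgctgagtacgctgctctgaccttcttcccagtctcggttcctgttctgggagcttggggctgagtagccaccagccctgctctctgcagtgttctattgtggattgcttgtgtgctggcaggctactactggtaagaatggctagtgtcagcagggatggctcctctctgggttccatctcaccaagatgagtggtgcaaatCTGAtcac
Snora23: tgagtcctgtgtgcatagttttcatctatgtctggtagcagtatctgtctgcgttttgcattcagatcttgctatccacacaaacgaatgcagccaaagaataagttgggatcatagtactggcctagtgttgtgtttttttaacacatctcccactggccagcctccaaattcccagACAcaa
Snord118: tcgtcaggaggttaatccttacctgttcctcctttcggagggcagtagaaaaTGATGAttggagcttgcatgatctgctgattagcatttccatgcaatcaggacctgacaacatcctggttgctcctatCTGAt
Snord91a: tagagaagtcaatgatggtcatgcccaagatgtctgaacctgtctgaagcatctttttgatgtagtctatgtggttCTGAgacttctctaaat
Snord116l8: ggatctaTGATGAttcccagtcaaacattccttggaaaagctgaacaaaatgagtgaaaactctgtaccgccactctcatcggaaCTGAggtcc
Snord116l12: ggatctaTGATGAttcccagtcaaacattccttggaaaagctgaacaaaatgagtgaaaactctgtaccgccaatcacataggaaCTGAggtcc

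Box sequences were counted in each class. On the RNA strand, TGATGA was found in 11 of the 14 box C/D members (78.6%), in 75 of all 99 Snord symbols and in 0 of 41 Snora symbols, against 26.5% of the 1558 small nucleolar and Cajal body RNA genes of GENCODE M21. A CTGA followed by at most 15 bases was found in 14 of 14 box C/D members and 96 of 99 Snord symbols, and in 2 of 8 box H/ACA members and 4 of 41 Snora symbols, against 33.4% of the M21 genes. An ACA exactly 3 bases from the 3′ end was found in 5 of 8 box H/ACA members and 34 of 41 Snora symbols, and in 0 of 99 Snord symbols, against 19.3% of the M21 genes. Of the 4 Cajal body members, 3 held TGATGA, 3 the CTGA and 1 the ACA at these places. These are matches of letters, and a TGATGA can overlap a CTGA. Snord91a, printed above, holds CTGA but no TGATGA.

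The abundant members were the longer ones. Annotated length had a median of 117.5 bases in the 26 members (66 to 414) and 94 bases in the 123 named genes outside the rule, of which 56 had no count in any library. Above 180 bases, a limit chosen after the values were seen, there were 9 named genes, and 5 of them were members: Scarna2 (414 bases), Scarna13 (275), Scarna6 (265), Snord17 (238) and Snora23 (184). These 5 held 98.3% of all counts in the 26 members, and none of the other 21 members had a median count above 74 per library. The other 4 long genes, Scarna10 (325 bases), Snora73a and Snora73b (205 bases each) and Snora74a (196 bases), are listed at 0 in all 31 libraries. These zeros went with the position of the genes. An exon of another GENCODE M21 gene, on either strand, overlaps 75 of the 149 named genes, and 56 of these 75 (74.7%) were at 0 in all libraries, Scarna10, Snora73a, Snora73b and Snora74a among them, while 0 of the other 74 were. How the authors' counting treated reads shared by overlapping genes is not given in the sources used here, so a 0 is not read as a level. Among the 74 genes without such an overlap, the 23 members had a median length of 108 bases and the other 51 genes 94 bases. The members with an overlap were Snord42b, Snora28 and Scarna13. How well the extraction column and the library preparation recover RNAs of this size was not tested.

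**Figure D1:**
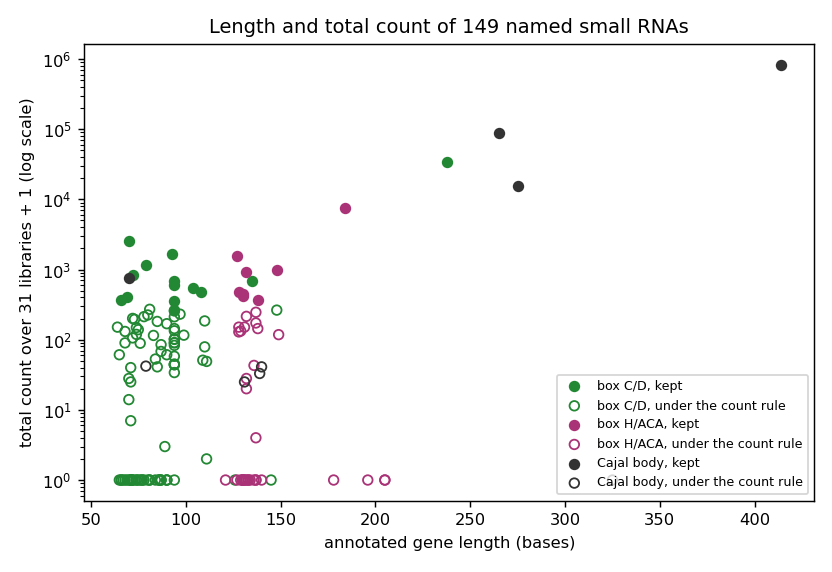
Annotated gene length (x axis, bases) against the total count over 31 libraries plus 1 (y axis, log scale) for the 149 named genes, coloured by class, with members filled. The 5 members longer than 180 bases stand above the other 21, and 56 named genes, each overlapped by an exon of another gene, lie on the floor at no count.

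Members near the count limit had few counts in any library. Snord116l17 met the rule in exactly 13 libraries, with 2 to 18 counts per library and 268 in all. Just outside, Snord15a reached 10 counts in 12 libraries (263 in all) and Snord72 in 11 (270 in all), so the border falls between genes of nearly the same total. No member was at 0 in any library. The expression filter of the test kept 25 of the 26, all but Snord116l17.

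Total counts per library ran from 17570311 to 38680621, and the 26 members took between 0.0459% and 0.277% of them, with a median of 0.0996%. Defining markers of the brain were present in every library, for example Snap25 of neurons at 574 to 1455 CPM (counts scaled to a common library size) and Mbp of oligodendrocytes at 2223 to 3575 CPM, while albumin (Alb) was at 0 in 21 libraries and reached 0.137 CPM at most. Ins2, the other gene listed as not of brain, was at 0 in 0 libraries and ran from 0.0263 to 0.929 CPM (median 0.158). Control replicate 2 stood apart. Together mt-Rnr1 and mt-Rnr2, the ribosomal RNAs of mitochondria, held 40.2% of its counts against 7.32% to 27.4% in the other 30 libraries, and its TMM scaling factor was 0.613. It was the highest library for 19 of the 26 members, so the main values of the comparison between the groups are given with and without it. CPM values use TMM-scaled library sizes throughout. In brain homogenate, fewer cells of a type and less RNA per cell cannot be told apart.

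Of the Cajal body class, Scarna2 was the most abundant of all members, at a mean of 2306 CPM per kilobase of annotated length. Its level was 542, 900 and 3588 CPM (lowest, median and highest) in the 13 control samples and 384, 737 and 1696 CPM in the 18 deltamethrin samples. The control maximum is replicate 2, the other libraries overlapped across the groups, and in 11 of 18 deltamethrin samples the level was under the control median. Scarna6 followed at 398 CPM per kilobase, with 56.3, 94.2 and 513 CPM in control and 30.4, 83.4 and 193 CPM in deltamethrin. Control replicate 2 was again the highest, deltamethrin replicate 1 was the lowest, and deltamethrin replicate 4 reached the level of control replicate 7. Scarna13, an RNA of the H/ACA type in an intron of the host RNA Snhg10, averaged 63.0 CPM per kilobase, with 11.4, 15.1 and 56.7 CPM in control against 6.30, 13.1 and 26.3 CPM in deltamethrin. Scarna9, which lies in an intron of Cep295, was 70 bases long and averaged 12.3 CPM per kilobase, with 0.289, 0.656 and 3.16 CPM in control against 0.264, 0.625 and 1.43 CPM in deltamethrin.

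Among box C/D RNAs, Snord17 averaged 177 CPM per kilobase, and the next were Snord104 at 41.7, Snord91a at 17.5, Snord55 at 16.1 and Snord49a at 12.6 CPM per kilobase. Snord17 was at 15.4, 35.0 and 244 CPM in control and 3.27, 26.6 and 72.4 CPM in deltamethrin, a 74.5-fold distance between the lowest and the highest of the 31 libraries. Its lowest values were in deltamethrin replicates 1 and 2 and its highest in control replicate 2, but the groups overlapped and 7 of 18 deltamethrin samples were above the control median. Snord104, which has no same-strand host and lies at chr11:106500993-106501062, was at 1.47, 3.07 and 10.3 CPM in control and 0.804, 2.28 and 4.95 CPM in deltamethrin. Snord91a ran the other way in control replicate 2, where it had its lowest value: 0.650, 1.61 and 2.02 CPM in control and 1.10, 1.63 and 2.74 CPM in deltamethrin. Snord55 was at 0.936, 1.20 and 2.97 CPM in control and 0.817, 1.03 and 2.02 CPM in deltamethrin. Snord49a, in 2410006H16Rik, was at 0.491, 0.875 and 1.58 CPM in control and 0.299, 0.952 and 1.74 CPM in deltamethrin. Its groups covered nearly the same range.

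Snord118 and Snord13, both RNAs of ribosomal RNA processing with no same-strand host, were low in this total RNA. Snord118 was at 0.191, 0.812 and 6.13 CPM in control and 0.0891, 0.660 and 1.78 CPM in deltamethrin, a 68.8-fold range over 31 libraries. Snord13 was at 0.289, 0.505 and 3.62 CPM in control and 0.149, 0.498 and 1.03 CPM in deltamethrin. In each of these control replicate 2 was the highest library. The level was under the control median in 13 of 18 deltamethrin samples for Snord118 and in 10 of 18 for Snord13. Snord42b, Snord43 and Snord58b, which lie in the ribosomal protein genes Rpl23a, Rpl3 and Rpl17, had mean levels of 6.26, 4.90 and 6.15 CPM per kilobase. Snord42b overlaps an exon of a retained-intron transcript of Rpl23a, and how reads shared with the host were counted is not known.

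The box H/ACA class was led by Snora23 at 50.8 CPM per kilobase, followed by Snora28 at 12.9, Snora57 at 8.02, Snora17 at 7.47 and Snora78 at 4.55 CPM per kilobase. Snora23 was at 1.45, 8.67 and 60.5 CPM in control and 0.654, 7.05 and 20.2 CPM in deltamethrin. Its range of 92.6-fold was the widest among the 26 members. Snora28, in Eif5, had the narrowest range, 3.49-fold, with 0.762, 1.54 and 2.66 CPM in control and 0.997, 1.62 and 2.42 CPM in deltamethrin. It overlaps an exon of a retained-intron transcript of Eif5. Snora57 ran from 0.176 to 6.31 CPM over all libraries and Snora17 from 0.478 to 2.14 CPM. Snora78, in the host RNA Snhg9 and antisense to Rps2, was at 0.184, 0.606 and 3.16 CPM in control and 0.196, 0.361 and 0.984 CPM in deltamethrin, with 14 of 18 deltamethrin samples below the control median. Snora31, in an intron of Tpt1, varied 35.2-fold, from 0.0259 to 0.912 CPM, and its deltamethrin replicates spanned the control range. Whether the authors' counting used strand is not given in the sources used here. Snora78 and Snora23 overlap no annotated exon of Rps2 or 1600010M07Rik. Without strand, reads from unspliced transcripts of these 2 antisense genes could not be told apart from those of Snora78 and Snora23.

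**Figure D2:**
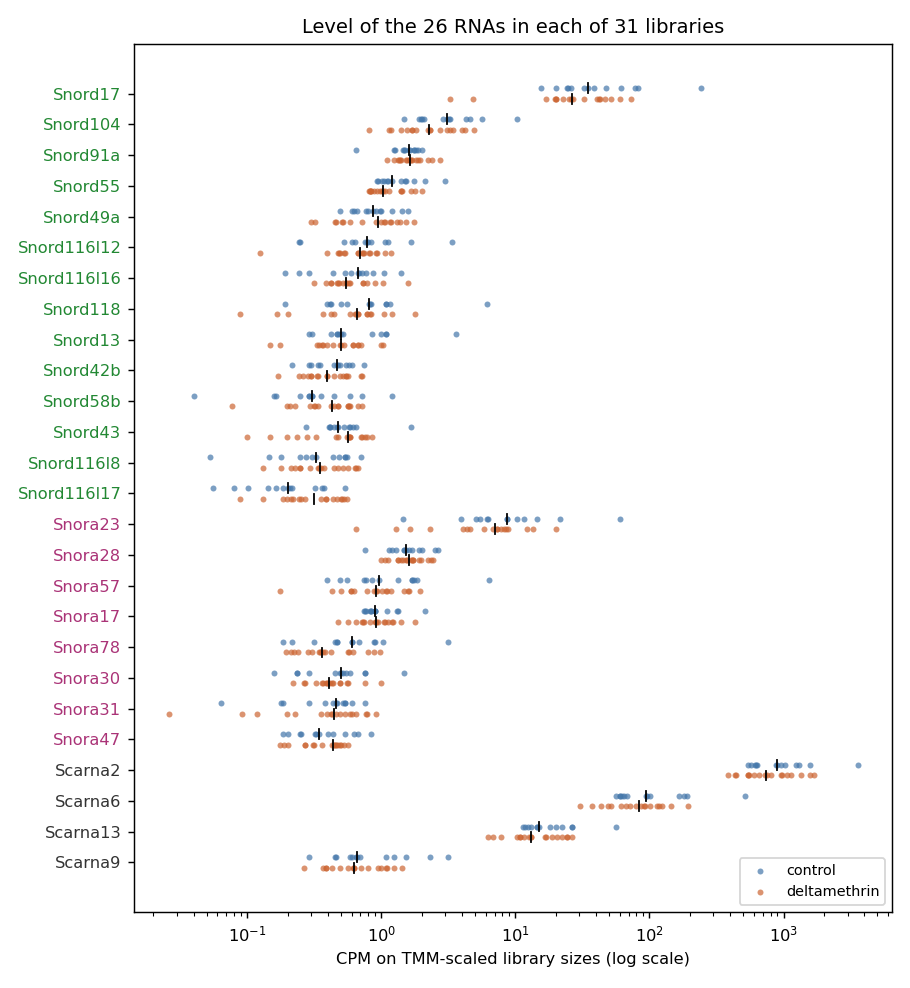
CPM on TMM-scaled library sizes (x axis, log scale) of each of the 26 members (rows) in each library, with 13 control and 18 deltamethrin samples as points. The groups overlap for every member, and the highest point is control replicate 2 for 19 of them.

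The spread between libraries was wide. In 20 of the 26 members the highest library was at least 5 times the lowest. The biological coefficient of variation, edgeR's estimate of the spread between replicates beyond counting, had a median of 43.9% over the 25 tested members (19.4% for Snord91a to 75.5% for Snora23) against a median of 18.3% over all tested genes, and all 25 lay above that median. The members were not compared with genes of similar level, and 21 of the 26 had a median count of at most 74 per library. Control replicate 2 was the highest library for 19 members, and no other library was highest for more than 1. Deltamethrin replicate 1 was the lowest for 7 members and deltamethrin replicate 2 for 3.

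None of the 25 tested members changed with deltamethrin at an adjusted p under 0.05 (edgeR quasi-likelihood F-test, Benjamini-Hochberg adjustment over 19529 genes), and the smallest adjusted p among them was 0.813. Across all genes the share called was 0%, with a smallest adjusted p of 0.441. At an unadjusted p under 0.05 there were 4 of 25 members, all lower in deltamethrin, against 4.37% of all tested genes in either direction, 2.37% lower and 2% higher. They were Snord17 and Snord104 of 13 box C/D members, Snora78 of 8 box H/ACA members and Scarna6 of 4 Cajal body members.

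Snord17 averaged 56.0 ± 60.2 CPM (SD, n = 13) in control and 32.0 ± 18.4 CPM (SD, n = 18) in deltamethrin. The log2 fold change was -0.80 ± 0.36 (SE) with edgeR p = 0.0348 and adjusted p = 0.813. Scarna6 averaged 132 ± 124 CPM in control and 86.5 ± 41.5 CPM in deltamethrin, and its log2 fold change was -0.61 ± 0.29 with edgeR p = 0.0413. Snord104 had -0.52 ± 0.25 with edgeR p = 0.0469, its level being under the control median in 12 of 18 deltamethrin samples. Snora78 had -0.63 ± 0.31 with edgeR p = 0.0493. Each difference in mean CPM was smaller than the SD of the control samples, and none passed the adjustment. Without control replicate 2 these log2 fold changes were -0.34 for Snord17, -0.21 for Scarna6, -0.32 for Snord104 and -0.32 for Snora78, and 0 of 25 members had an unadjusted p under 0.05, against 3.64% of all genes tested without that library.

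Of the members that missed this limit, Scarna2, Snora23, Scarna13 and Snord118 lay the same way with that library, and nearer 0 without it. Scarna2 had a log2 fold change of -0.40 ± 0.25 (edgeR p = 0.113) and -0.10 without control replicate 2. Snora23 had -0.82 ± 0.41 (edgeR p = 0.0536) and -0.32 without it. Scarna13 had -0.40 ± 0.22 (edgeR p = 0.0800) and -0.18 without it. Snord118 had -0.54 ± 0.38 (edgeR p = 0.161) and -0.01 without it. Snord91a had 0.12 ± 0.13 (edgeR p = 0.343), Snord49a -0.01 ± 0.23 (edgeR p = 0.960) and Snora28 0.02 ± 0.15 (edgeR p = 0.895). Without that library these 3 were at 0.07, 0.05 and 0.07.

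By class, the median log2 fold change was -0.14 in the box C/D members (4 higher, 9 lower), -0.13 in the box H/ACA members (2 higher, 6 lower) and -0.42 in the Cajal body members (0 higher, 4 lower), against 0.0014 over all tested genes. Without control replicate 2 the medians were -0.014, -0.022 and -0.20, and over all 25 members 10 were higher and 15 lower.

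**Figure D3:**
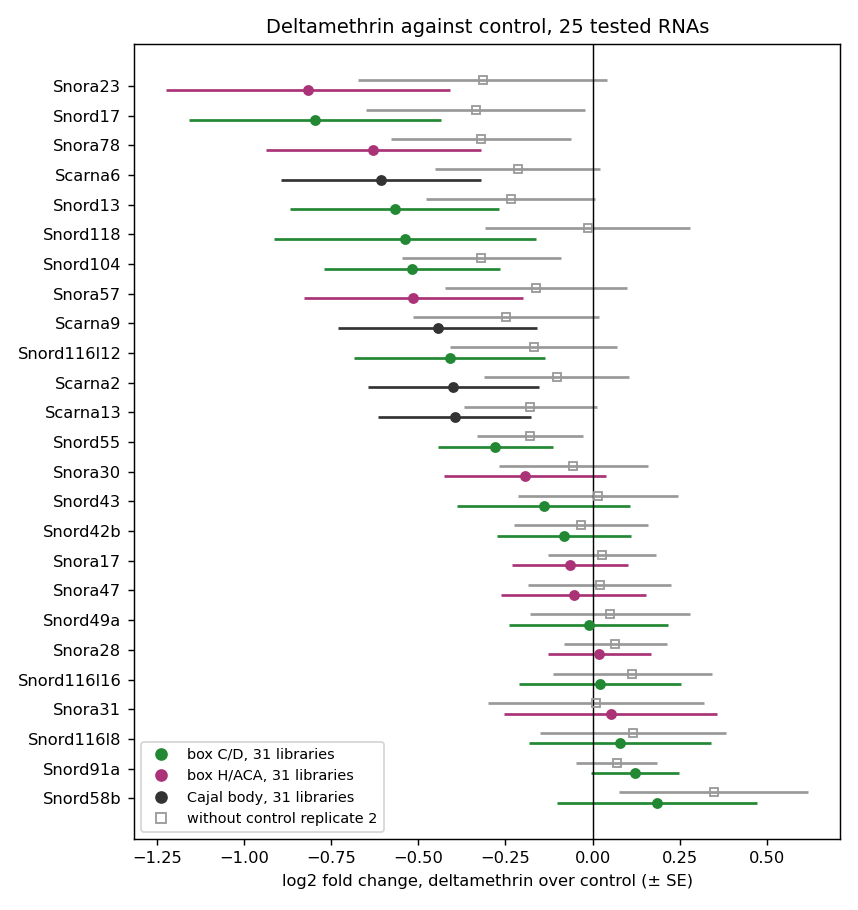
Log2 fold change of deltamethrin over control with its SE (x axis) for the 25 tested members (rows), from all 31 libraries and from 30 libraries without control replicate 2. The points move toward 0 without that library for Snord17 (-0.80 to -0.34), Snora23 (-0.82 to -0.32) and Scarna6 (-0.61 to -0.21).

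Most members followed the composition of the library. A second fit held the agent and the log2 share of counts in the mitochondrial ribosomal RNAs, a measure of library composition from the same counts. Of 25 members, 22 (88%) passed an adjusted p of 0.05 for that share, 21 higher and 1 lower with a higher share, against 55.5% of all tested genes (28.1% higher and 27.5% lower). They were 11 of 13 box C/D, 7 of 8 box H/ACA and 4 of 4 Cajal body members. The median slope over the members was 0.88 log2 CPM per doubling of the share, against 0.014 over all genes. With no scaling factors 17 of 25 passed (59.5% of all genes) and the median slope was 0.67, against -0.19 over all genes. The share was not a group of the study and was not randomised, and both sides of the relation come from 1 count table.

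Snora23 rose by 1.56 ± 0.21 (SE) log2 CPM per doubling of the share (edgeR adjusted p = 1.97e-07), Snord17 by 1.46 ± 0.17 (edgeR adjusted p = 2.06e-08) and Snord118 by 1.39 ± 0.19 (edgeR adjusted p = 1.51e-07). Scarna2 rose by 1.07 ± 0.09 (edgeR adjusted p = 5.68e-12) and Scarna6 by 1.10 ± 0.14. Snord91a, alone among the members, fell with a higher share, with a slope of -0.38 ± 0.10 (edgeR adjusted p = 0.00095). The 5 members longer than 180 bases, a limit chosen after the values were seen, all passed with a median slope of 1.10. Of the 20 shorter ones, 17 passed, and their median was 0.65. Of all genes, 55.5% passed, with a median slope of 0.014. The difference between the long and short members was not tested.

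**Figure D4:**
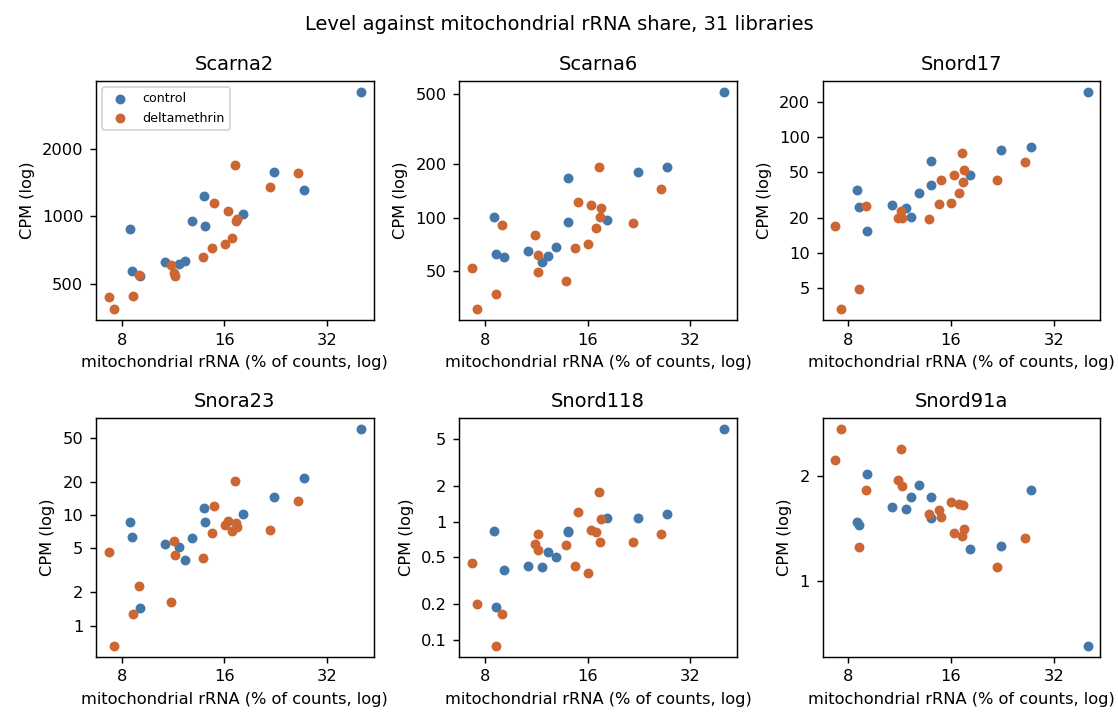
CPM (y axes, log scale) against the share of counts in mitochondrial ribosomal RNA (x axes, percent, log scale) for 6 members in 31 libraries, coloured by group. Control replicate 2 lies at the far right at 40.2%, where 5 of these RNAs were highest and Snord91a was lowest.

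These relations did not rest on 1 library. Without control replicate 2, 20 of 25 members passed (51.8% of all genes), and without the 2 libraries with the most distant share, control replicates 2 and 7, 20 of 25 passed (53.3%). Within the 13 control samples alone 17 of 25 passed (40.5%), and within the 18 deltamethrin samples 21 of 25 (48.9%). Snord17 had a slope of 1.39 in the control samples and 1.56 in the deltamethrin samples, and Scarna2 had 0.99 and 1.15. Snord91a had -0.27 in the control samples, where its adjusted p by edgeR was 0.172, and -0.48 in the deltamethrin samples. With the share held in the fit, the agent left 0 of 25 members past an adjusted p of 0.05 and 6 of 25 at an unadjusted p under 0.05, all lower, against 9.2% of all genes. Those 6 were Snord17 (-0.49), Snora78 (-0.43), Snord104 (-0.43), Snord13 (-0.39), Scarna13 (-0.29) and Scarna2 (-0.24), in log2 fold change. In the same fit without control replicate 2, an alternative chosen after seeing the data, there were 3 of 25, against 9.7% of all genes: Snord17 (-0.44), Snord104 (-0.42) and Scarna13 (-0.26).

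Of the Snord116 cluster, 4 copies were members. Of 17 Snord116 symbols in the table, 14 have a sequence identical to that of another gene, and Snord116l17, Snord116l16 and Snord116l8 are identical to each other, so how the authors' counting divided their reads is not known and their values are uncertain. Snord116l12 differs from them at 3 positions counted from the 5′ end, written with the Snord116l8 base first: C74A, T77A and C81A. It held the largest total count of the 4 (695, against 603, 356 and 268). Snord116l12 was at 0.245, 0.788 and 3.34 CPM in control and 0.124, 0.699 and 1.19 CPM in deltamethrin. Snord116l16 was at 0.191, 0.665 and 1.39 CPM in control and 0.318, 0.548 and 1.58 CPM in deltamethrin. Snord116l8 was at 0.0526, 0.324 and 0.710 CPM in control and 0.131, 0.347 and 0.674 CPM in deltamethrin. Snord116l17, too low for the test, was at 0.0554, 0.203 and 0.535 CPM in control and 0.0891, 0.313 and 0.552 CPM in deltamethrin. In all 4 the groups overlapped.

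The log2 fold change with deltamethrin was -0.41 ± 0.27 for Snord116l12 (edgeR p = 0.143), 0.02 ± 0.23 for Snord116l16 (edgeR p = 0.927) and 0.08 ± 0.26 for Snord116l8 (edgeR p = 0.764). Leaving out control replicate 2, the values were -0.17, 0.11 and 0.12. Snord116l12 rose by 0.96 ± 0.16 log2 CPM per doubling of the mitochondrial share (edgeR adjusted p = 4.08e-06), whereas the slopes of Snord116l16, 0.11 ± 0.20 (edgeR adjusted p = 0.667), and Snord116l8, 0.25 ± 0.23 (edgeR adjusted p = 0.372), did not pass. The difference between their slopes was not tested. Their host Snhg14 was at 318.7 ± 109.5 CPM (SD, n = 13) in control and 330.3 ± 81.1 CPM (SD, n = 18) in deltamethrin, with a log2 fold change of 0.05 ± 0.14 (edgeR p = 0.705) and a slope on the share of 0.27 ± 0.10.

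The host genes were compared with their guests by position. Of the 26 members, 20 lie within a gene on the same strand, 18 in an intron. Of 17 host genes, 15 were tested, and 1 had an unadjusted p under 0.05 for deltamethrin, against 4.37% of all genes. It was Atg16l1, an autophagy gene and host of Scarna6, at -0.11 ± 0.04 (edgeR p = 0.0155, adjusted p = 0.813). Atg16l1 was again the only one without control replicate 2, at -0.12 ± 0.04, against 3.64% of all genes. With the mitochondrial share, 9 of 15 hosts (60%) passed an adjusted p of 0.05, 8 of them higher, near the 55.5% of all genes. Ipo7, the importin gene that hosts Snora23, had a slope of -0.07, Atg16l1 had 0.01 and Snx5, host of Snord17, had 0.29, beside 1.56, 1.10 and 1.46 for their guests. Ribosomal protein hosts rose with the share, by 0.81 for Rpl17, 0.68 for Rpl23a and 0.44 for Rpl3. Their guests had slopes of 0.84 for Snord58b in Rpl17, 0.39 for Snord42b in Rpl23a and 0.70 for Snord43 in Rpl3. The difference between guest and host slopes was not tested.

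**Figure D5:**
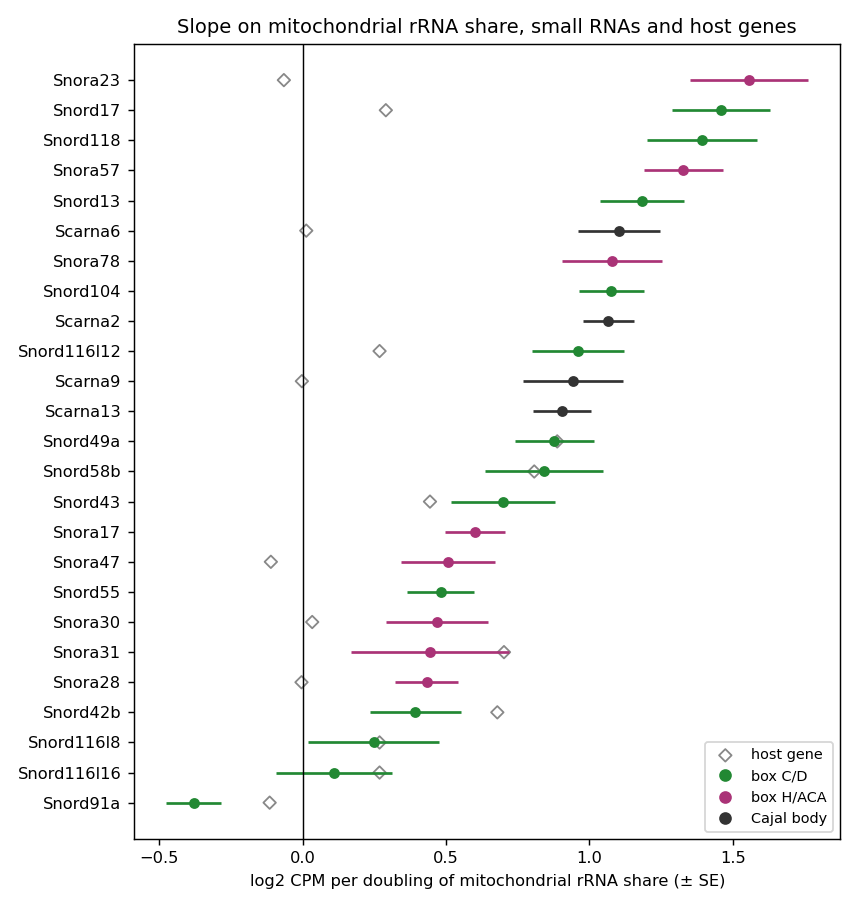
Slope on the mitochondrial ribosomal RNA share with its SE (x axis, log2 CPM per doubling of the share) for the 25 tested members and for those of their host genes that were tested and are reported here. Snora23, Snord17 and Scarna6 lie above 1 while their hosts Ipo7, Snx5 and Atg16l1 lie between -0.07 and 0.29. Snord58b (0.84) lies close to its host Rpl17, and Snord42b (0.39) lies below its host Rpl23a.

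No gene of the proteins that make or bind these RNAs passed an adjusted p of 0.05 between the groups, and the share at an unadjusted p under 0.05 was 4.37% over all genes. Of the 4 box C/D core proteins, none had an unadjusted p under 0.05: fibrillarin (Fbl), the methyltransferase, had a log2 fold change of -0.12 ± 0.08, Nop56 -0.10 ± 0.07, Nop58 0.13 ± 0.07 and Snu13 -0.08 ± 0.08. Of the 4 box H/ACA core proteins, Nhp2 had -0.24 ± 0.12 (edgeR p = 0.0421, adjusted p = 0.813), and dyskerin (Dkc1), the pseudouridine synthase, had 0.09 ± 0.06, Gar1 0.05 ± 0.07 and Nop10 -0.15 ± 0.13. Among 14 tested assembly and transport factors, 1 was higher at an unadjusted p under 0.05, Znhit6 at 0.19 ± 0.08 (edgeR p = 0.0187), and the median was -0.03. Among 12 Cajal body and small nuclear ribonucleoprotein factors none was, the smallest p belonging to Wrap53, which carries RNAs to the Cajal body, at -0.12 ± 0.07 (edgeR p = 0.0929). Among 13 genes of ribosomal RNA processing and RNA polymerase I none was, nucleolin (Ncl) having the smallest p at 0.15 ± 0.08 (edgeR p = 0.0709). With control replicate 2 left out, Nhp2 was at -0.19 ± 0.11 (edgeR p = 0.104) and Znhit6 at 0.19 ± 0.08 (edgeR p = 0.0209). Bop1, a ribosome biogenesis factor of the last list named after its value was seen, was then at -0.13 ± 0.06 (edgeR p = 0.0356). With the mitochondrial share 1 of 4 box C/D and 2 of 4 box H/ACA core proteins passed an adjusted p of 0.05, all 3 higher, against 55.5% of all genes. In the other lists 10 of 14 assembly and transport factors passed (4 higher, 6 lower), 8 of 12 Cajal body factors (5 higher, 3 lower) and 10 of 13 genes of ribosomal RNA processing and RNA polymerase I (3 higher, 7 lower).

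Of 19 tested host RNAs of the small nucleolar host gene family, 0 had an unadjusted p under 0.05 with deltamethrin, against 4.37% of all genes. Snhg20 had the smallest p, at -0.47 ± 0.26 (edgeR p = 0.0869). Without control replicate 2 it was at -0.31 and the count was again 0 of 19, against 3.64% of all genes. With the mitochondrial share 16 of 19 passed an adjusted p of 0.05, all higher, against 55.5% of all genes (28.1% higher). The median slope over the 19 was 0.66. Other small structured RNAs that are not guides were followed beside the members. Of 7 tested, 5 had an unadjusted p under 0.05, all lower in deltamethrin, against 4.37% of all genes (2.37% lower). The median log2 fold change over the 7 was -0.60. For the mitochondrial share 7 of 7 passed an adjusted p of 0.05, all higher, against 55.5% of all genes (28.1% higher), with a median slope of 1.19. Rmrp, the RNA of the RNase MRP ribonucleoprotein, averaged 11.3 ± 12.9 CPM (SD, n = 13) in control and 5.92 ± 2.76 CPM (SD, n = 18) in deltamethrin, and its log2 fold change was -0.88 ± 0.32 (edgeR p = 0.00965, adjusted p = 0.813). Rpph1, the RNA of RNase P, had -0.52 ± 0.26 (edgeR p = 0.0498). Without control replicate 2, 0 of these 7 had an unadjusted p under 0.05, against 3.64% of all genes, and their median was -0.16.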

How the data were processed

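For 31 mouse brain total RNA libraries the authors deposited raw read counts by Ensembl ID, whole numbers with no normalization, between 17570311 and 38680621 per library. Per the submitters' processing notes, MultiQC, Trimmomatic, HISAT2 and SAMtools were used with GRCm38. The counting tool, annotation and use of strand are not given in the sources used here. Titles tied the columns to the samples, and groups came from the agent label. IDs were matched to GENCODE M21 for positions, lengths, hosts and sequences.

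Genes were kept by filterByExpr (minimum count 10, minimum total 15), which left 19529, and fitted together with edgeR 4.0.16 in R 4.3.3 (TMM factors, robust quasi-likelihood F-test, Benjamini-Hochberg adjustment over all genes tested). Log2 CPM used a prior count of 2, and each SE is the absolute fold change on the log2 scale over the root of the F statistic. A second fit added the log2 share of counts in mt-Rnr1 and mt-Rnr2. The members, gene lists and tests were chosen with earlier results of these data known. Members were named by level per length (5, 5 and 3 of the classes), unadjusted p under 0.05 for the agent, largest spread (5), Snord116 membership and extreme slopes (3 each way). From each other list the gene with the smallest p was named, and the core proteins whole. Where a gene outside these rules is named, such as the hosts set beside their guests, it was chosen after its values were seen. Alternatives were other scaling factors, count filters, DESeq2 1.42.0, limma 3.58.1 voom, the share as covariate and each library left out. The tests were tested on simulated data. The values of 1 host gene are not reported here. Kinase measurements of the study were not analysed here.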

Additional observations from a re-analysis of the deposited data

How the results depend on the processing

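No member passed an adjusted p of 0.05 for the agent under any of the alternatives run or with any 1 library left out. Of the counts at an unadjusted p under 0.05, the box C/D count of 2 was 1 with upper quartile factors, with no scaling factors, with no count filter and with the filter at a mean count of 50, 0 with limma voom, and 3 with DESeq2, with 10 counts in 13 libraries for every gene and with the mitochondrial share as covariate. The box H/ACA count of 1 was 0 with RLE factors, upper quartile factors, no scaling factors, the filter at a mean count of 50 and limma voom, and 2 with DESeq2 and with robust=FALSE. The filter at a mean count of 50 left 3 box C/D and 2 box H/ACA members to test and removed Snora78, which fixed the box H/ACA count at 0. The Cajal body count of 1 was 0 with no scaling factors, no count filter and limma voom, and 2 with the mitochondrial share as covariate. With the share as covariate and control replicate 2 left out, an alternative chosen after seeing the data, the counts were 2, 0 and 1. Leaving out each library in turn gave 0 (control replicate 2) to 4 (deltamethrin replicate 4) for box C/D, 0 to 2 for box H/ACA and 0 (control replicate 2) to 2 for Cajal body members. Of all genes tested, 4.37% had an unadjusted p under 0.05 in the main fit and 3.64% without control replicate 2. With the mitochondrial share as covariate it was 9.2%, and 9.7% with control replicate 2 also left out. For the other settings that percent is not given here, so their counts are not read as results about the members. Leaving out each library, the median log2 fold change ran from -0.20 to -0.014 for box C/D, from -0.19 to -0.022 for box H/ACA and from -0.50 to -0.20 for Cajal body members. The sign reversed for Snord49a with no scaling factors (0.027) and for Snora31 with limma voom (-0.12) and with the share as covariate and control replicate 2 left out (-0.073), and the cause was not tested. With 1 library left out it also reversed for Snord49a (-0.094 to 0.065), Snora28 (-0.042 to 0.11), Snora17 (-0.14 to 0.028), Snora31 (-0.046 to 0.15), Snord116l16 (-0.098 to 0.13) and Snord116l8 (-0.027 to 0.23). With all 31 libraries the values of these RNAs ran from -0.066 (Snora17) to 0.079 (Snord116l8). For the mitochondrial share, 22 of 25 members passed an adjusted p of 0.05, against 55.5% of all genes. The count was 22 with RLE factors, and 17 with no scaling factors, against 59.5% of all genes. No paired analysis was possible because the numbers given to the samples follow their order and pair nothing. Low counts limit the precision: 21 of the 26 members had a median count of at most 74 per library.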

Other observations

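Small nucleolar and Cajal body RNAs of GENCODE M21 that carry other symbols, mostly Gm numbers, numbered 123 at the same count rule, and 112 of them were tested. With deltamethrin 0 passed an adjusted p of 0.05 and 5 had an unadjusted p under 0.05 by edgeR, 4 of them lower, against 4.37% of all genes, with a median log2 fold change of -0.06 over the 112. Without control replicate 2 there was 1, higher, and the median was 0.02. With the mitochondrial ribosomal RNA share 82 of 112 (73.2%) passed an adjusted p of 0.05, all higher, against 55.5% of all genes, with a median slope of 0.61 log2 CPM per doubling. The most abundant per length were Gm25395, at 1078 CPM per kilobase, and Gm22442, at 979 CPM per kilobase, both above every named member except Scarna2. Gm22442 was at 64.5, 125.8 and 681 CPM (lowest, median and highest) in control and 44.9, 88.1 and 263 CPM in deltamethrin, with a log2 fold change of -0.65 ± 0.30 (edgeR p = 0.0352, adjusted p = 0.813) and -0.27 without control replicate 2, and its groups overlapped. Gm24598 had a narrow range of 2.31-fold over the 31 libraries, from 3.42 to 7.88 CPM, and rose by 0.39 ± 0.07 log2 CPM per doubling of the share. These genes were named after their values were seen. Snord116l8 shares its sequence with 29 other annotated genes, more than the 17 Snord116 symbols, so some copies carry other symbols. How many of the 112 are identical copies, whose reads may be shared, was not counted.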
